A study of Mus musculus with 48 samples.

Results

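The mice described here are the 16 Bmal1 knockout (KO) mice, of 48 in the series, whose livers were taken in the middle of the subjective day or of the subjective night. The 8 day mice were killed at zeitgeber hours (ZT) 4 and 8 and the 8 night mice at ZT16 and ZT20, with 4 mice at each time; the table's column names call the same hours CT. They were chosen by genotype and hour alone, and the 16 wild-type (WT) mice of the same 4 times serve as the comparison. In KO mice both Bmal1 alleles were floxed (the table lists the gene as Arntl), and the EsrCre transgene supplied a recombinase made in all tissues and switched on by tamoxifen. WT mice, called controls in the sample titles, were littermates with the same floxed alleles and no Cre. All were male C57BL/6 mice of 4 to 6 months, both genotypes were gavaged with tamoxifen at 5 mg per day for 5 days, and 7 days later all went into constant darkness for 36 h and were killed in darkness. Because every KO mouse and no WT mouse had Cre, Cre and the loss of Bmal1 cannot be told apart. Group-housed day mice of both genotypes came from 1 set of cages, those of ZT16 from another and those of ZT20 from yet another. Mice housed alone have no cage set given. Cage set and time of day therefore cannot be told apart either.

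BMAL1 pairs with CLOCK or NPAS2, binds the E-box DNA element, and switches on the genes of its own repressors (PER, CRY and REV-ERB proteins) and output factors such as Dbp. Through this loop a large share of liver transcripts differs between day and night. Feeding, body temperature and hormones such as glucocorticoids also vary over the day and can act on liver genes from outside the loop, and the comparison asks which transcripts still differ between day and night in livers without Bmal1 and whether they move the same way in WT livers.

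Each of the 32 libraries held 33562272 to 33951274 read counts; detected genes numbered 17842 to 18575 per library. Levels are given as CPM, counts scaled to the library total after TMM normalisation. Replicates are separate mice, and the variance between replicate libraries was 30.3 to 172 times that of counting, so over all genes the spread between mice was larger than counting error. KO mice weighed 28.1 g ± 2.53 by day and 28.6 g ± 2.67 by night (SD, n = 8 each; two-sided exact permutation test, p = 0.775), and 1 day mouse and 2 night mice lived alone. Counts over the whole Arntl gene do not check the deletion, because the floxed allele loses only part of the gene. In these whole livers, fewer cells of a type and less RNA per cell cannot be told apart.

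Few genes passed the test for a difference between day and night in KO liver. Of 13900 genes tested, 237 passed (1.71%; edgeR's quasi-likelihood test, Benjamini-Hochberg adjusted p under 0.05, referred to below as called): 106 were higher by day (0.763%) and 131 higher by night (0.942%). In WT liver 4524 of 13864 genes passed (32.6%), 2196 higher by day (15.8%) and 2328 by night (16.8%), which was 19.1 times as many. At an unadjusted p under 0.05 in the same test, 2784 genes passed in KO, so genes not called there may still differ. Differences of at least 2-fold were reached by 16 called genes by day and 5 by night in KO, against 152 by day and 175 by night in WT. The median absolute log2 fold change of called genes was 0.42 in KO and 0.38 in WT. No overlap in CPM between the day mice and the night mice was seen for 47 of the 13900 genes in KO (0.338%), 43 of them called, and for 782 of 13864 in WT (5.64%). The difference between genotypes was itself called for 2912 of 14313 genes (20.3%). Among the 2876 of these with a value in both genotypes, the day minus night difference was smaller in size in KO than in WT for 2516 and larger for 360.

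The size of the KO count was not stable, and it was lower than the WT count at every setting run in both genotypes. Left out 1 at a time, the KO mice gave counts of 70 (without ZT4 mouse 5) to 723 (without ZT8 mouse 15). The count moved by over 1.5 times in 10 of the 16 such fits: besides those 2 it was 71 without ZT4 mouse 6, 91 without ZT8 mouse 14, 106 without ZT16 mouse 25, 119 without ZT16 mouse 30, 97 without ZT16 mouse 31, 97 without ZT20 mouse 34, 105 without ZT20 mouse 37 and 153 without ZT20 mouse 38. DESeq2 called 820 genes, 236 of which were among the 237, and scaling by total counts turned the split to 416 by day and 69 by night. Only ZT4 mice 6 and 7, ZT8 mice 9 and 10, and ZT16 mice 25 and 26 shared a cage with another of these KO mice. Deviations within cages had a correlation of 0.285 among KO mice. Each of these pairs also shared its hour, and the model held 1 mean per phase, so cage and hour cannot be told apart in this value. With cage as a random block limma-voom called 85 genes, and 208 without it. A 24 h cosine called 1 gene over all 24 KO mice and 26 without KO ZT12 mouse 21, against 7358 over the 24 WT mice, and ZT8 against ZT20 alone called 1 in KO.

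**Figure D1:**
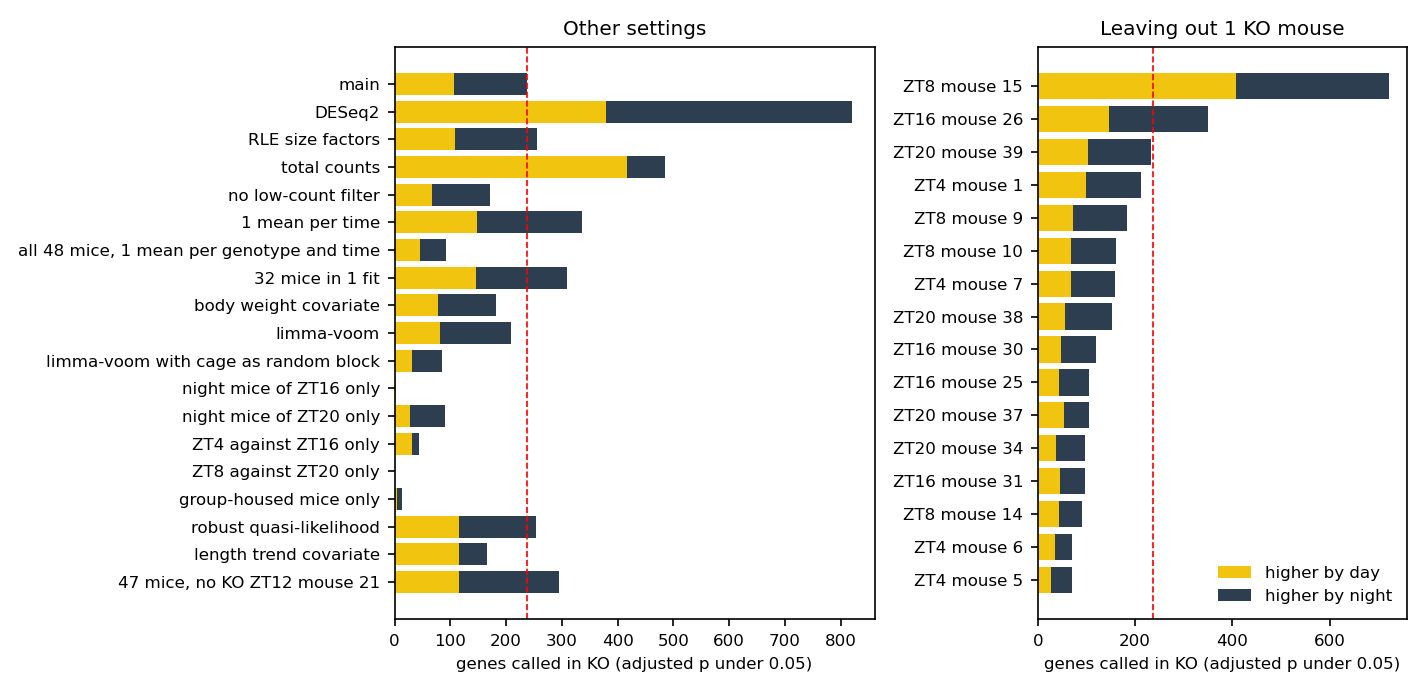
Number of genes called between day and night in KO liver (x axis; yellow, higher by day; dark, higher by night) under each setting (left) and without each KO mouse in turn (right), with a dashed line at the 237 of the test described above. Leaving out ZT8 mouse 15 gave 723 called genes and leaving out ZT4 mouse 5 gave 70.

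None of the 28 clock genes tested was called in KO liver, where 1.71% of all genes tested were, and 16 were called in WT liver, where 32.6% of all genes were. With so low a share over all genes in KO, the count of 0 does not set the clock genes apart there. DESeq2, the fits with 1 mean per time and the fits without ZT8 mouse 9 or 15 called 1 of them in KO, Npas2. The 15 E-box targets had no KO call and a median log2 fold change (day minus night) of 0.18 in KO, against 7 higher by day, 1 higher by night and a median of 0.76 in WT. The 5 genes that REV-ERB proteins repress had no KO call and a median of -0.29 in KO, against 5 higher by night and a median of -1.93 in WT. Of 8 other clock components none was called in KO (median -0.12), against 1 by day and 2 by night in WT (median -0.08). The median over all genes tested was 0.00 in both genotypes. The difference between genotypes was called for 6, 3 and 2 members of the 3 lists.

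Arntl itself (ENSMUSG00000055116, mm9 chromosome 7, 120350979 to 120457636) stood in KO livers at 4.5996, 15.6 and 19.7 CPM by day (lowest, median and highest of 8 mice) and at 6.82, 12.5 and 23.3 by night. In WT livers it stood at 0.978, 3.78 and 23.9 CPM by day and 20.9, 37.8 and 47.8 by night. The KO groups overlapped throughout (log2 fold change -0.02 ± 0.34 SE, adjusted p = 0.978), and in WT 2 of 8 day mice were above the lowest night mouse (-1.93 ± 0.58 SE, adjusted p = 0.0171). Dbp (ENSMUSG00000059824, mm9 chromosome 7, 52960458 to 52965525), a PAR bZIP output factor of the clock, had 3.99, 15.4 and 61.8 CPM by day and 2.62, 21.3 and 43.5 by night in KO livers, against 11.7, 110.5 and 149.8 by day and 1.21, 2.54 and 3.93 by night in WT livers. Its log2 fold change was 0.00 ± 0.61 in KO (SE, adjusted p = 0.999) and 5.06 ± 0.53 in WT (SE, adjusted p = 7.62e-06). The KO estimate was -0.62 for ZT8 against ZT20 and 0.73 for ZT4 against ZT16. KO livers were not uniformly low in Dbp: mice of the same phase differed by more than 10-fold from each other. Nr1d1 (ENSMUSG00000020889, mm9 chromosome 11, 98629246 to 98636647), which encodes REV-ERB alpha, had 6.23, 15.99 and 56.7 CPM by day and 4.91, 33.6 and 67.9 by night in KO livers, against 75.0, 126.8 and 147.5 by day and 1.32, 2.50 and 7.94 by night in WT livers. The KO estimate pointed the other way from WT without passing the test (-0.73 ± 0.49 SE, adjusted p = 0.431, against 5.28 ± 0.30, adjusted p = 3.57e-09).

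Npas2 (ENSMUSG00000026077, mm9 chromosome 1, 39250576 to 39420079), the alternative partner of BMAL1, had the largest KO estimate among the clock genes. It stood at 1.05, 1.92 and 9.57 CPM by day and 2.99, 8.005 and 19.97 by night in KO livers, against 0.148, 0.468 and 4.49 by day and 1.69, 5.62 and 18.7 by night in WT livers. The groups overlapped in both genotypes, the KO difference missed the threshold (-1.52 ± 0.47 SE, adjusted p = 0.0892), and the WT difference passed it (-2.30 ± 0.72 SE, adjusted p = 0.0202). The difference between genotypes for Npas2 did not pass (0.78, adjusted p = 0.585).

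The promoters of Gm129 (Ciart, a repressor of CLOCK-BMAL1) and Bhlhe41 (a repressor that competes for E-boxes) are shown because they hold the element concerned and both genes were called in WT. They are from RefSeq on build GRCm38.p6, not the mm9 of the counts, and run from 250 bases before to 50 bases after the start. Both lie on the minus strand, Gm129 at chr3:95882179-95882478 and Bhlhe41 at chr6:145865371-145865670. Capitals mark the E-box CACGTG, which reads the same on both strands and starts 116, 58 and 44 bases before the start in Gm129 and 153 bases before it in Bhlhe41.
Gm129: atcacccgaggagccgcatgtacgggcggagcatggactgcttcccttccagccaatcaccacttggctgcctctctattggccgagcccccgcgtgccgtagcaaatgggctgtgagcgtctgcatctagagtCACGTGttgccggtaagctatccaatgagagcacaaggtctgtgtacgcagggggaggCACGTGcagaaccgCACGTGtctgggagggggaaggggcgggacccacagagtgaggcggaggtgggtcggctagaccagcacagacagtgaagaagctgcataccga
Bhlhe41: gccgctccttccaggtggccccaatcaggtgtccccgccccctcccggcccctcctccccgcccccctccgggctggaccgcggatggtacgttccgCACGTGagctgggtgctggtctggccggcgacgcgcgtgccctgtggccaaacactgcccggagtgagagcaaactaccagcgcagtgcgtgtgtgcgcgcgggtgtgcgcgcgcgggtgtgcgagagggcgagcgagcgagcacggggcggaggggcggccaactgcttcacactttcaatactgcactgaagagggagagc
Gm129 stood at 0.718, 2.47 and 11.1 CPM by day and 0.525, 2.03 and 6.39 by night in KO livers, against 0.444, 10.0 and 28.0 by day and 0.202, 1.19 and 2.46 by night in WT livers. Bhlhe41 stood at 1.26, 2.12 and 5.34 CPM by day and 0.741, 2.64 and 6.07 by night in KO livers, against 2.08, 13.2 and 18.6 by day and 1.64, 2.08 and 3.99 by night in WT livers. The KO groups overlapped for both genes (log2 fold changes 0.53 ± 0.57 and -0.25 ± 0.42 SE), where both were called higher by day in WT (3.23 ± 0.76 and 2.18 ± 0.41 SE). An E-box lay in the window of 4 of the 11 E-box targets with a RefSeq promoter (36.4%). The same was true of 9 of 73 genes called higher by day in KO (12.3%), 11 of 102 called higher by night (10.8%) and 1236 of 10816 genes tested in KO (11.4%). A match is only a match of letters.

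**Figure D2:**
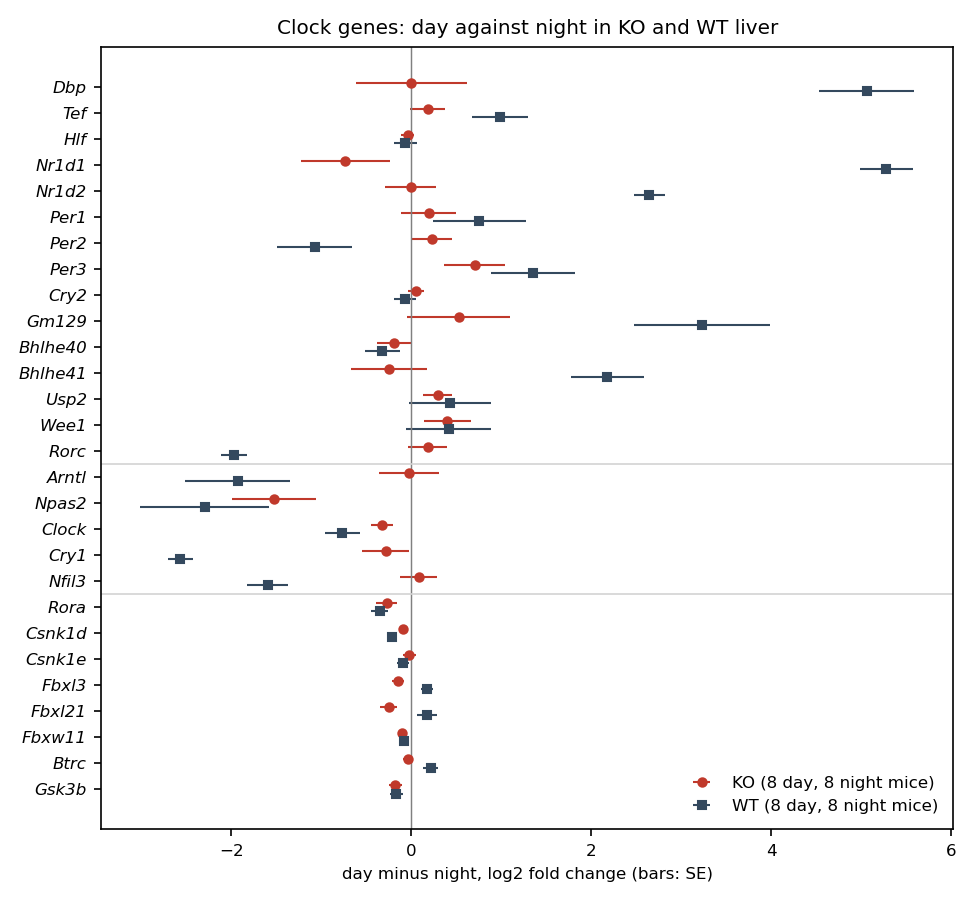
Day minus night log2 fold change (x axis) of 28 clock genes in KO liver (red circles) and WT liver (dark squares), with bars for the SE; the lists from top to bottom are E-box targets, REV-ERB-repressed genes and other components. Dbp lies at 0.00 in KO and 5.06 in WT, and Npas2 lies below 0 in both genotypes.

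The genes with the smallest p in KO included a fibroblast growth factor receptor and an EGF receptor ligand that were low by day in KO and high by day in WT. Fgfr2 (ENSMUSG00000030849, mm9 chromosome 7, 137305965 to 140315033 as the table gives it), a receptor for fibroblast growth factors, had 25.2, 27.5 and 33.2 CPM by day and 34.9, 42.4 and 47.02 by night in KO livers. In WT livers it had 35.9, 49.2 and 62.2 CPM by day and 25.3, 34.8 and 46.1 by night. All 8 KO day mice lay below all 8 KO night mice, and the WT groups overlapped with the day mice higher. Its log2 fold change was -0.55 ± 0.07 in KO (SE, adjusted p = 0.00217) and 0.47 ± 0.13 in WT (SE, adjusted p = 0.0102), and the difference between them was -1.02 (adjusted p = 2.38e-05). The interval given for Fgfr2 is longer than the gene, and whether reads from elsewhere in it were counted is not known. Tgfa (ENSMUSG00000029999, mm9 chromosome 6, 86145420 to 86225151), which encodes transforming growth factor alpha, a ligand of the EGF receptor, had 14.4, 15.8 and 18.3 CPM by day and 19.5, 22.5 and 24.6 by night in KO livers, against 15.6, 21.7 and 25.1 by day and 14.1, 17.3 and 21.2 by night in WT livers. Again the KO groups did not overlap (-0.46 ± 0.07 SE, adjusted p = 0.00665), and WT was called the other way (0.30 ± 0.11 SE, adjusted p = 0.0406). Fam55b showed the same pair of directions at -0.43 ± 0.06 in KO and 0.29 ± 0.08 in WT (SE, both called).

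Vac14 (ENSMUSG00000010936, mm9 chromosome 8, 113142503 to 113244296), a scaffold of the complex that makes the endosomal lipid PI(3,5)P2, went the opposite way. It had 32.3, 40.95 and 43.5 CPM by day and 25.2, 28.7 and 30.7 by night in KO livers, against 23.7, 30.8 and 40.8 by day and 33.4, 38.3 and 49.5 by night in WT livers. The KO groups did not overlap (0.49 ± 0.07 SE, adjusted p = 0.00511), and WT was called lower by day (-0.32 ± 0.10 SE, adjusted p = 0.0231). Nr5a2 (ENSMUSG00000026398, mm9 chromosome 1, 138740161 to 138857004), the nuclear receptor LRH-1 that controls bile acid and cholesterol genes, had 39.6, 45.03 and 49.8 CPM by day and 49.9, 58.9 and 61.1 by night in KO livers. In WT livers the 3 values were 42.1, 47.6 and 58.6 by day and 49.7, 54.5 and 59.5 by night. The KO groups just failed to touch (-0.36 ± 0.05 SE, adjusted p = 0.00665), and the WT estimate had the same sign without passing (-0.15 ± 0.07 SE, adjusted p = 0.122); the difference between genotypes did not pass (adjusted p = 0.0869).

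Lower in level among the 10 genes with the smallest p were 4 more. Tc2n (-1.02 ± 0.15 SE), Slc22a15 (-0.56 ± 0.09 SE), a member of the organic ion transporter family, and Cbln3 (-1.03 ± 0.17 SE) were higher by night in KO, and none was called in WT. Clec9a (0.55 ± 0.09 SE), a receptor of dendritic cells that binds dead cells, was higher by day in KO and not called in WT. All 10 genes stayed called when any 1 KO mouse was left out, with adjusted p at most 0.0307. With the ZT16 mice as the only night mice, Fgfr2 alone of the 10 was called (adjusted p = 0.00926; the others 0.0537 to 0.129).

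**Figure D3:**
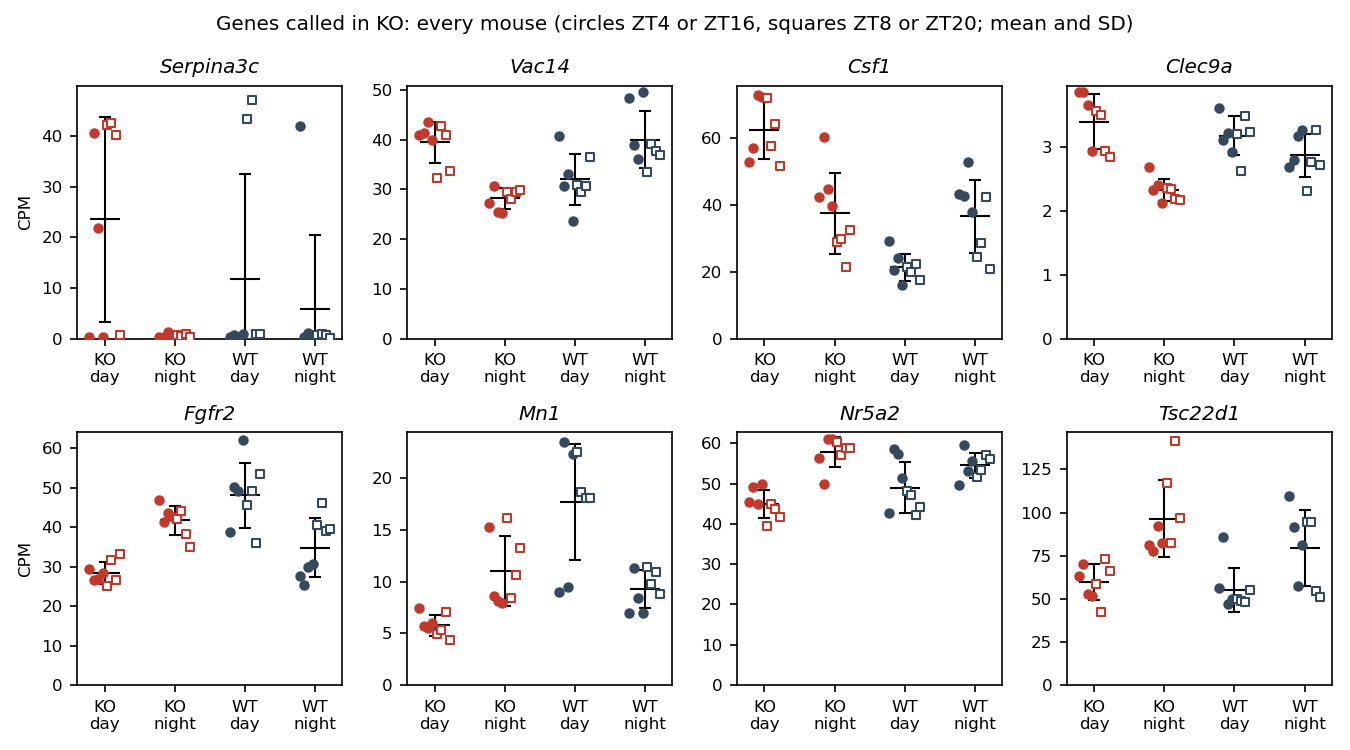
CPM (y axis) of 8 genes called in KO, 1 point per mouse (circles ZT4 or ZT16, squares ZT8 or ZT20), with the mean and SD of 8 mice for KO day, KO night, WT day and WT night. Fgfr2 and Mn1 lie lower by day than by night in KO and higher by day than by night in WT, and Serpina3c is near 0 in most mice and between 21.9 and 47.1 CPM in the others.

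Among genes averaging at least 5 CPM in KO, the 12 largest differences towards day ran from 0.59 to 5.44 on the log2 scale. The largest was Serpina3c (ENSMUSG00000066361, mm9 chromosome 12, 105384592 to 105392080), a serine protease inhibitor gene of a family of close copies, whose reads may be split among them. It had 0.282, 31.0 and 42.5 CPM by day and 0.201, 0.464 and 1.20 by night in KO livers, against 0.222, 0.815 and 47.1 by day and 0.144, 0.697 and 41.98 by night in WT livers. Mice were either at most 1.20 CPM or at least 21.9 CPM: 5 of 8 KO day mice and 0 of 8 KO night mice were at the high level, against 2 of 8 WT day mice and 1 of 8 WT night mice. Over all 48 mice 11 were high, among them 1 of 4 KO and 2 of 4 WT mice at ZT12; this split was noticed after the values were seen. The test gave 5.44 ± 0.95 in KO (SE, adjusted p = 0.0120) and 1.03 ± 1.24 in WT (SE, adjusted p = 0.562), and the difference between genotypes did not pass (adjusted p = 0.0690).

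A1bg (ENSMUSG00000022347, mm9 chromosome 15, 60749144 to 60752825), which encodes a plasma glycoprotein and is higher in female than in male mouse liver, had 0.863, 11.6 and 32.6 CPM by day and 0.0904, 1.15 and 4.66 by night in KO livers. In WT livers it had 0.151, 0.971 and 9.70 CPM by day and 0.213, 1.21 and 13.6 by night. The KO groups overlapped at the low end (3.13 ± 0.64 SE, adjusted p = 0.0256; 0.0541 without ZT4 mouse 5). Csf1 (ENSMUSG00000014599, mm9 chromosome 3, 107543966 to 107563387), the growth factor of macrophages, had 51.7, 60.7 and 72.6 CPM by day and 21.5, 35.9 and 60.1 by night in KO livers, against 15.9, 21.03 and 29.05 by day and 20.9, 39.9 and 52.7 by night in WT livers. KO day mice were the highest of the 4 groups and WT day mice the lowest, with overlap between the phases in each genotype. Csf1 was called higher by day in KO (0.74 ± 0.16 SE, adjusted p = 0.0310) and lower by day in WT (-0.77 ± 0.17 SE, adjusted p = 0.00243), and the difference between genotypes was 1.51 (adjusted p = 7.03e-05). The KO call was kept in 11 of 16 fits without 1 KO mouse, with an adjusted p of up to 0.0662 without ZT4 mouse 6.

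Synpo, an actin-associated protein gene, had the same pair of directions (0.71 ± 0.15 in KO and -0.70 ± 0.18 in WT, SE, both called). Naip5 (0.60 ± 0.12 SE), a sensor of bacterial flagellin, and Ctla2b (0.59 ± 0.13 SE) were called higher by day in WT as well (0.51 ± 0.12 and 0.42 ± 0.09 SE). The other 8 of the 12, counting Serpina3c and A1bg, were not called in WT. These were Slc16a5, a transporter of the monocarboxylate family, Oas2, an interferon-induced antiviral enzyme, Fam25c, Ccl24, a chemokine that attracts eosinophils, Fitm1, a protein of lipid droplet formation, and Lgals1, galectin-1, with KO log2 fold changes of 0.61 to 0.84. Fam25c, Naip5 and Serpina3c kept their calls in all 16 fits without 1 KO mouse. Ccl24 kept its call in 2 (adjusted p of up to 0.0930 without ZT8 mouse 14), Oas2 in 4, Slc16a5 and Fitm1 in 7, Lgals1 and Ctla2b in 8 and Synpo in 12.

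The 12 largest differences towards night ran from -0.99 to -0.57. Mn1 (ENSMUSG00000070576, mm9 chromosome 5, 111846382 to 111886053), a transcriptional co-regulator, had 4.35, 5.58 and 7.41 CPM by day and 7.88, 9.60 and 16.1 by night in KO livers, against 9.03, 18.4 and 23.4 by day and 6.92, 9.25 and 11.4 by night in WT livers. All KO day mice were below all KO night mice (-0.93 ± 0.16 SE, adjusted p = 0.0120), most WT day mice were above the WT night mice (0.93 ± 0.19 SE, adjusted p = 0.00142), and the genotypes differed by -1.86 (adjusted p = 1.49e-05). Lgr5 (ENSMUSG00000020140, mm9 chromosome 10, 114887367 to 115024836), the R-spondin receptor of hepatocytes around the central vein, had 3.27, 4.37 and 6.13 CPM by day and 4.92, 6.996 and 13.5 by night in KO livers, against 4.49, 6.03 and 7.98 by day and 3.01, 3.49 and 5.78 by night in WT livers. It was called in opposite directions (-0.72 ± 0.18 in KO, adjusted p = 0.0455, and 0.68 ± 0.14 in WT, adjusted p = 0.00155, SE). Its KO call was kept in 3 of 16 fits without 1 KO mouse, with an adjusted p of up to 0.0933 without ZT4 mouse 6.

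Tsc22d1 (ENSMUSG00000022010, mm9 chromosome 14, 76814768 to 76907569), a leucine zipper protein gene induced by TGF-beta, was higher by night in both genotypes. It had 42.4, 60.7 and 73.2 CPM by day and 77.9, 87.4 and 141.4 by night in KO livers, against 46.98, 49.7 and 85.9 by day and 51.1, 86.4 and 109.4 by night in WT livers. The KO groups did not overlap and the WT groups did (-0.69 ± 0.13 in KO, adjusted p = 0.0165, and -0.52 ± 0.16 in WT, adjusted p = 0.0219, SE). Mug1 (ENSMUSG00000059908, mm9 chromosome 6, 121788559 to 121839075), an abundant plasma protease inhibitor with close relatives that may share reads, had 2600, 3175 and 4750 CPM by day and 4281, 5825 and 7561 by night in KO livers, against 3564, 5002 and 6574 by day and 2881, 4455 and 5560 by night in WT livers. KO day mice were mostly low (-0.73 ± 0.14 SE, adjusted p = 0.0239), and WT mice overlapped widely (0.19 ± 0.13 SE, adjusted p = 0.270). Pemt, which methylates phosphatidylethanolamine to phosphatidylcholine, was at 86.0 CPM by day and 143 by night on average in KO livers (-0.73 ± 0.15 SE) and was not called in WT (-0.24 ± 0.14 SE).

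Gldc, the glycine decarboxylase of the glycine cleavage system, and Celsr1, a cadherin of planar cell polarity, were called higher by night in both genotypes. For Gldc the values were -0.61 ± 0.15 in KO and -0.74 ± 0.20 in WT, and for Celsr1 -0.59 ± 0.13 and -1.94 ± 0.30 (SE). The genotypes differed for Celsr1 (1.36, adjusted p = 0.00445) and not by the test for Gldc (0.13, adjusted p = 0.774). The other 5, none called in WT, were Spon2, an extracellular matrix protein, Ndrg1, Cd9, a tetraspanin, Rhobtb3 and Rtn4rl1, with KO values of -0.99 to -0.57. Mn1, Mug1, Tsc22d1 and Rhobtb3 kept their calls in all 16 fits without 1 KO mouse, Pemt in 14, Cd9 in 13, Spon2 in 10, Rtn4rl1 in 7, Celsr1 in 6, Ndrg1 in 5 and Gldc in 3 (up to 0.0961 without ZT4 mouse 6).

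Of the genes called in KO, 60.7% had the same sign in WT, where 53.6% of all genes tested did. The 2 shares were not tested against each other. Of the 237, 234 were tested in WT and 142 of them had the same sign there, against 7365 of the 13752 genes tested in both. For genes higher by day in KO the count was 67 of 103 (65.0%), and for genes higher by night 75 of 131 (57.3%). The share was 66.5% of 310 called genes with the 32 mice in 1 fit. With all 48 mice in 1 fit it was 50.5% of 93 called genes. Without KO ZT12 mouse 21 that fit gave 62.4% of 295. Called in WT too and in the same direction were 55 genes, 24 by day and 31 by night, which is 23.2% of the KO list and 1.22% of the WT list. Among all genes tested in WT, 15.8% were called higher by day and 16.8% higher by night. These shares are the background for this count and for the next one. Called in WT in the opposite direction were 35, 12 higher by day in KO and 23 higher by night, and the difference between genotypes was called for all 35 and for 2 of the 55. Both sets were picked by their calls and signs in these same mice, so this outcome was largely set by the choice. The remaining 144 were not called in WT, which does not show that they did not differ there. Across genes the log2 fold changes of the genotypes had a Pearson correlation of 0.13 over all genes and 0.06 over those called in KO; genes are not independent, and mice of both genotypes shared cage sets and times. Read from the other side, 2491 of 4502 WT-called genes had the same sign in KO (55.3%), with a median absolute log2 fold change of 0.09 in KO against 0.37 in WT.

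**Figure D4:**
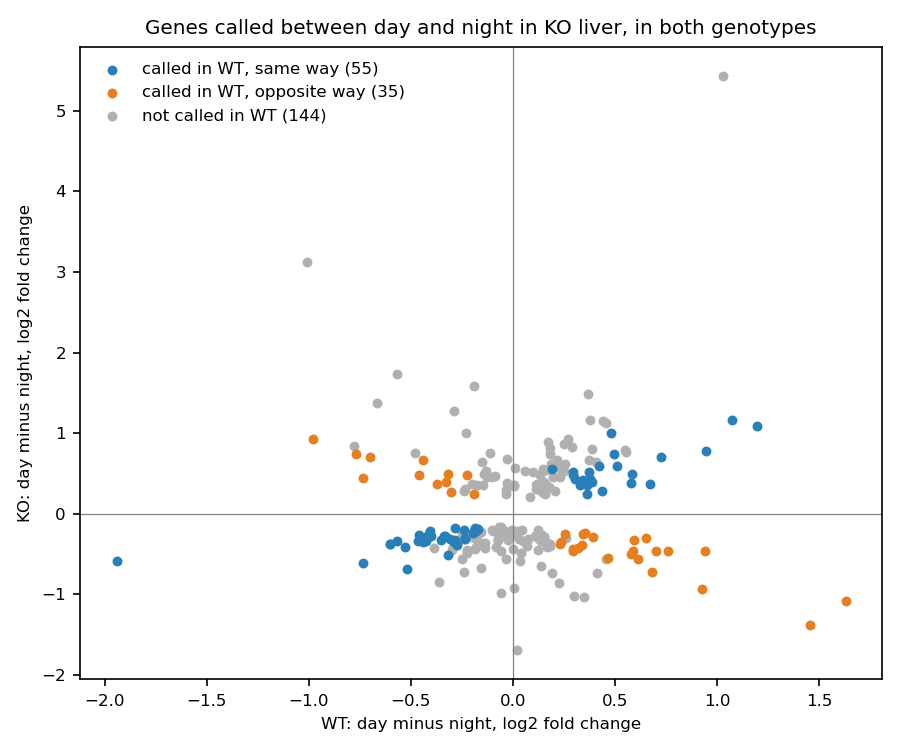
Day minus night log2 fold change in WT (x axis) and KO (y axis) of the 234 genes called in KO and tested in WT, 1 point per gene. The 55 called the same way in WT (blue) lie in the lower left and upper right, the 35 called the opposite way (orange) in the other corners, and 144 were not called in WT (grey).

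The genes that differed the same way in both genotypes, beside Gldc, Celsr1, Tsc22d1, Naip5 and Ctla2b, included Cd37, a tetraspanin of B cells, at 0.50 ± 0.09 in KO and 0.58 ± 0.11 in WT (SE). Ankrd16 was also higher by day in both (0.38 ± 0.09 and 0.58 ± 0.09 SE). Higher by night in both were Bmpr2, a receptor of bone morphogenetic proteins (-0.41 ± 0.10 in KO and -0.53 ± 0.12 in WT, SE), Acnat1, an acyl-CoA amino acid acyltransferase (-0.38 ± 0.07 and -0.60 ± 0.09), and Vcl, the adhesion protein vinculin (-0.38 ± 0.09 and -0.60 ± 0.07). Vcl (ENSMUSG00000021823, mm9 chromosome 14, 21748655 to 21852895) had 16.3, 19.4 and 20.9 CPM by day and 20.7, 23.3 and 31.9 by night in KO livers, against 17.997, 22.5 and 25.3 by day and 28.9, 34.4 and 36.9 by night in WT livers. Its phases touched in KO and were apart in WT, and the difference between genotypes did not pass (0.22, adjusted p = 0.200). In the 16 fits without 1 KO mouse, Cd37 and Acnat1 kept their KO calls in all 16 and Bmpr2 and Ankrd16 in 5. Vcl kept its KO call in 2 (adjusted p of up to 0.0883 without ZT8 mouse 14).

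The genes called in opposite directions with the smallest KO p, beside Fgfr2, Vac14, Tgfa, Fam55b and Mn1, included Agxt and Nox4. Agxt (ENSMUSG00000026272, mm9 chromosome 1, 95031822 to 95041984), which turns glyoxylate into glycine, had 150.8, 194.1 and 233.1 CPM by day and 196.3, 284.3 and 322.4 by night in KO livers, against 227.1, 297.1 and 347.2 by day and 148.5, 170.3 and 303.2 by night in WT livers. Phases overlapped in both genotypes (-0.50 ± 0.10 in KO and 0.58 ± 0.15 in WT, SE). Nox4 (ENSMUSG00000030562, mm9 chromosome 7, 94394606 to 94547220), an oxidase that makes hydrogen peroxide, had 29.9, 34.0 and 44.8 CPM by day and 42.5, 49.5 and 59.9 by night in KO livers, against 36.8, 62.6 and 82.0 by day and 24.6, 37.4 and 44.1 by night in WT livers. It was lower by day in KO (-0.47 ± 0.09 SE) and higher by day in WT (0.76 ± 0.14 SE), with a difference of -1.23 (adjusted p = 1.44e-05). Alcam, an adhesion molecule (-0.38 ± 0.07 and 0.23 ± 0.07), and Kif1b, a kinesin motor (-0.29 ± 0.05 and 0.39 ± 0.12), followed the same pattern, and Adap2 the reverse (0.40 ± 0.08 and -0.33 ± 0.09, SE).

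The 10 genes with the clearest difference between genotypes were called in WT and not in KO. Among them were Pcbp4, a poly(C)-binding protein (-0.25 in KO against 1.46 in WT), Fgf1, a fibroblast growth factor (0.03 against -1.07), Casp6, a caspase (-0.17 against 1.36), Nr1d1, Zkscan17 (-0.11 against 0.85), Scamp1, a vesicle membrane protein (-0.10 against 0.70), Trib3, a pseudokinase induced by stress (-0.56 against 2.78), Rcl1, a protein of ribosomal RNA processing (-0.13 against 1.003) and Fbxo21 (-0.55 against 1.69). The SE of these genes lay between 0.05 and 0.49 in KO and between 0.07 and 0.30 in WT.

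Across 45 lists of pathway and cell-type genes, 12 of 699 distinct members tested were called in KO (1.72%, where 1.71% of all genes were), 5 higher by day and 7 by night, against 262 of 693 in WT (37.8%, where 32.6% of all genes were). With cage as a random block limma-voom called 2 members in KO, and 11 without the block. No member was called in 34 of the lists in KO and in 4 in WT. Of 22 heat shock protein and chaperonin genes 0 were called in KO (median -0.02), against 17 higher by night in WT (median -0.50). Of 25 genes of the unfolded protein response 0 were called in KO (median -0.11), against 3 by day and 18 by night in WT (median -0.62). Hsp90ab1, a cytosolic chaperone, stood at -0.18 ± 0.08 in KO and -0.58 ± 0.09 in WT, and Calr, the chaperone calreticulin, at -0.26 ± 0.08 and -0.70 ± 0.12 (SE). Of 11 cold-inducible RNA-binding genes 0 were called in KO (median 0.10), against 6 by day and 3 by night in WT. Of 24 glucocorticoid targets 0 were called in KO, against 5 by day and 7 by night in 23 tested in WT. Immediate early genes gave 0 of 19 in KO (median 0.20), against 3 by night in WT (median -0.12). Fos stood at 1.43 ± 0.56 in KO (SE, adjusted p = 0.160), and at 0.28 without ZT4 mouse 7, which had 27.1 CPM where the other KO day mice had 1.54 to 3.63. In WT it was called the other way (-1.34 ± 0.50, adjusted p = 0.0465), with ZT20 mice 33 and 35 at 9.41 and 14.3 CPM and the call kept in 7 of 16 fits without 1 WT mouse.

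The 3 lists of cholesterol, fatty acid and sugar-induced genes had no KO call either, which is near the 1.71% over all genes. Their share of WT calls was above the 32.6% over all genes. Of 23 genes of cholesterol synthesis and uptake 0 were called in KO (median -0.04), against 15 higher by night in WT (median -0.61). Of 21 genes of fatty acid synthesis 0 were called in KO (median -0.06), against 3 by day and 12 by night in WT (median -0.45), and of 21 genes induced by insulin or carbohydrate 0 were called in KO (median -0.03), against 3 by day and 12 by night in WT (median -0.30). Elovl3, an elongase of long fatty acids, had an estimate of -2.29 ± 0.70 in KO (SE, adjusted p = 0.0872) and -1.24 ± 0.72 in WT (adjusted p = 0.202; -0.46 without ZT20 mouse 33), and Thrsp, a regulator of fat synthesis, 0.50 ± 0.25 in KO (adjusted p = 0.273) and -1.59 ± 0.31 in WT (adjusted p = 0.001). Ribosome biogenesis had 1 of 25 called by day in KO (median 0.11), against 2 by day and 13 by night in WT (median -0.28). That member, Nop56, a core protein of the small nucleolar ribonucleoproteins, was at 0.47 ± 0.12 in KO (SE, adjusted p = 0.0481) and at -0.46 ± 0.14 in WT (adjusted p = 0.0187). Nop56 kept its KO call in 3 of 16 fits without 1 KO mouse. Ribosomal protein genes gave 0 of 35 and oxidative phosphorylation genes 0 of 24 in both genotypes.

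The members that were called in KO were scattered over 11 lists. Of 22 fasting genes 2 were called, among them Sesn3, a sestrin that was higher by night (-0.45 ± 0.11 SE), and of 27 fatty acid oxidation genes 2, among them Cidec, a lipid droplet protein that was higher by day (0.79 ± 0.19 SE). Asl, the urea cycle enzyme argininosuccinate lyase, was 1 of 28 amino acid genes called and was higher by day in KO (0.37 ± 0.09 SE, adjusted p = 0.0444) and by night in WT (-0.37 ± 0.11 SE, adjusted p = 0.0185). Ahr, the dioxin receptor (-0.31 ± 0.07 SE), was 1 of 29 xenobiotic genes, Cp, ceruloplasmin (-0.41 ± 0.10 SE), 1 of 23 acute phase genes, and Nr5a2 1 of 22 bile acid genes, all higher by night and none called in WT. A1bg was 1 of 25 female-biased genes, Lgr5 1 of 10 pericentral hepatocyte genes and Reln, a marker of stellate cells (-0.31 ± 0.07 SE), 1 of 11 stellate and fibroblast genes. Most of these calls depended on single mice. In the 16 fits without 1 KO mouse, Nr5a2 kept its call in all 16, Reln in 11, Ahr and Cp in 7, Sesn3 and Asl in 4 and Cidec in 3.

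B cell markers had KO estimates above 0, that is towards day, and most were called higher by day in WT. Of 10 B cell markers tested 1 was called in KO and all 10 estimates were above 0 (median 0.67), and 7 of 9 were called in WT (median 0.87), with no call for the difference between genotypes. The share called over all genes tested was 1.71% in KO and 32.6% in WT. The summed level of the 10 markers was 22.1 to 61.8 CPM by day (median 44.8) and 19.6 to 31.9 by night (median 27.9) in KO livers, against 27.5 to 70.1 by day (median 40.8) and 23.1 to 39.8 by night (median 27.9) in WT livers. Among other cell types no Kupffer cell, endothelial, T and NK cell or cholangiocyte marker was called in KO. With so low a share over all genes in KO, this absence of calls does not set these cell types apart. Their KO estimates were above 0 for 11 of 11 T and NK cell markers (median 0.20), 10 of 11 Kupffer cell markers (0.24), 6 of 11 endothelial markers (0.03) and 0 of 8 cholangiocyte markers (-0.32). B cell markers were thus not alone in lying on 1 side of 0. Summed Kupffer cell markers were at 1290 to 2062 CPM by day and 1017 to 1723 by night in KO livers, and summed stellate and fibroblast markers at 462.5 to 640.4 CPM by day and 585.1 to 676.3 by night. The part of these cell types in the called genes was not tested.

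The median transcript length differed between genes called higher by day and by night. In KO the median length was 3200.5 bases for genes higher by day and 5258 for genes higher by night, against 3316 for all genes tested; in WT it was 3064 and 3901, against 3317. The correlation of each library's levels with transcript length, taken relative to the mean of all libraries, was -0.234 to 0.104 in KO day mice (median -0.06), -0.039 to 0.178 in KO night mice (median 0.07), -0.127 to 0.050 in WT day mice (median -0.04) and -0.090 to 0.181 in WT night mice (median 0.06). With this trend added to the model as a covariate, an alternative chosen after seeing the data, 166 genes were called in KO, 116 higher by day and 50 by night, and 63 of them were among the 237. Fgfr2 (adjusted p = 0.0141), Vac14 (0.0141), Tgfa (0.0309), Nr5a2 (0.0330) and Tsc22d1 (0.0309) kept their calls, and Mn1 (0.0728), Csf1 (0.0642) and Synpo (0.135) lost them. The log2 fold changes under this covariate were -0.80 for Mn1, 0.77 for Csf1 and 0.54 for Synpo, against -0.93, 0.74 and 0.71 without it.

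**Figure D5:**
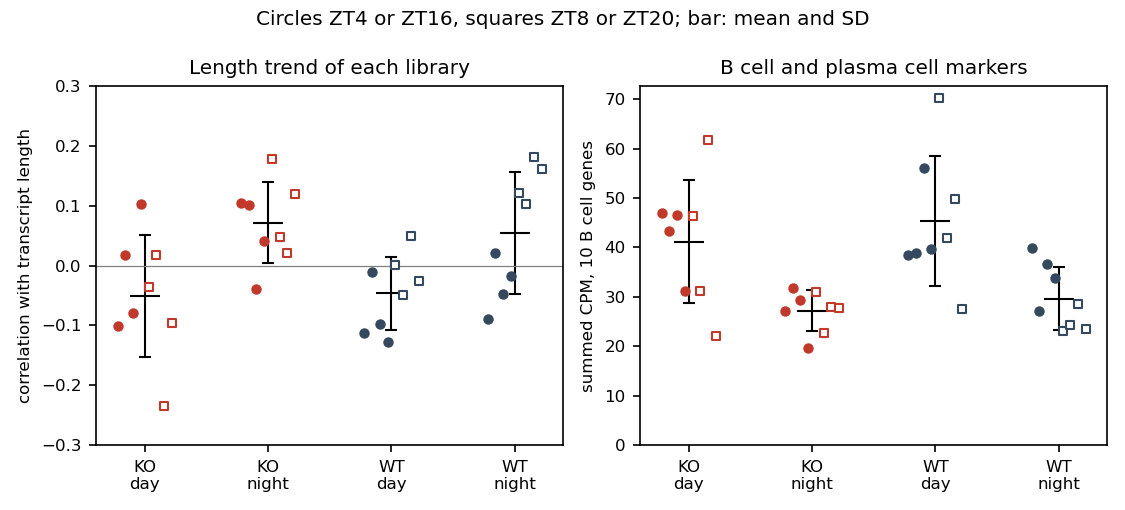
Correlation of expression with transcript length (left) and summed CPM of 10 B cell markers (right) for each library (circles ZT4 or ZT16, squares ZT8 or ZT20), with mean and SD of 8 mice in KO day, KO night, WT day and WT night. Night libraries tend to lie higher on the left and lower on the right in both genotypes.

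At the times between the phases, which the calls did not use, about as many called genes lay nearer the day as the night mean at ZT0, and the count at ZT12 turned on 1 mouse. At ZT0 the KO mean lay nearer the night mean for 118 of the 237 genes (49.8%; 49.0% of all genes tested). At ZT12 it did so for 94 (39.7%; 45.1% of all genes tested) with all 4 mice and for 153 (64.6%; 52.9% of all genes tested) without mouse 21. That library had a correlation with transcript length of -0.537, where the other 3 KO ZT12 libraries had -0.128 to -0.043. Fgfr2 averaged 32.9 CPM at ZT0 and 34.1 at ZT12 in KO livers (35.1 without mouse 21), between its day and night means of 28.5 and 41.8. Nr5a2 averaged 53.5 CPM at ZT0 and 42.7 at ZT12 in KO livers, where mouse 21 had 27.0 and the other 3 averaged 47.9, against a day mean of 44.95 and a night mean of 57.9.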

How the data were processed

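Liver poly-A RNA was made into unstranded libraries with 13 PCR cycles, 2 per lane, per the labels' protocols. The submitters' processing notes name CASAVA, STAR 2.4.0f1 and build mm9; the counting step and gene models are not given in the sources used here. The authors deposited whole-number read counts for 23732 genes. Totals per library are nearly equal, from which it is inferred that they were brought to a common depth. No such step is described in the sources used here. Reads carry no molecular identifiers.

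edgeR 4.0.16 (limma 3.58.1, R 4.3.3) was run on the KO mice alone, on the WT mice alone and, for the difference between genotypes, on all 32, with 1 mean per phase: filterByExpr (minimum count 10), TMM factors (0.928 to 1.07), quasi-likelihood F tests and Benjamini-Hochberg adjustment over all genes tested. SE were derived from the F statistics. The procedure was tested on simulated data. Alternatives included DESeq2 1.42.0, other scaling and covariates, single times and each mouse left out. No 2 libraries agreed within counting noise.

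Named genes are the 12 largest called differences each way in KO at 5 CPM or more, the 10 smallest KO p, the 10 largest called the same way in WT, the 10 smallest KO p called the opposite way, the 10 smallest p of the genotype difference, all clock genes, and up to 4 called members of each list; predicted genes were skipped. Some genes that meet these rules are not reported here. These genes, the mice and the lists were chosen with earlier results of these data known. Promoters come from RefSeq (GRCm38.p6), matched by symbol.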

Additional observations from a re-analysis of the deposited data

Results flagged for a closer look

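For 34 genes named in KO, each group of 8 KO mice was searched for a mouse far from the other 7 (68 groups). Of these, 3 stood out, where chance flags about 1 in 20 groups. Naip5 had 4.99 CPM in ZT8 mouse 15, the lowest KO day mouse. Lgr5 had 13.5 CPM in ZT20 mouse 38, the highest KO night mouse. Nr5a2 had 49.9 CPM in ZT16 mouse 26, the lowest KO night mouse.

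The day minus night difference itself differed between KO and WT (edgeR's quasi-likelihood interaction test, adjusted p under 0.05) for 19 of the 34 genes, and for 17 of them the 2 genotypes' estimates had opposite signs. The genotype difference was called for 20.3% of all genes and for 99 of the 237 called in KO, and the 34 genes were chosen by their KO difference, which enters this test. On the log2 scale, KO minus WT was 4.14 for A1bg, 1.62 for Slc16a5, 1.51 for Csf1, 1.41 for Synpo, 1.36 for Celsr1, 0.81 for Vac14, 0.71 for Ccl24 and 0.40 for Clec9a. It was -1.86 for Mn1, -1.40 for Lgr5, -1.38 for Cbln3, -1.32 for Tc2n, -1.15 for Cd9, -1.02 for Fgfr2, -0.93 for Ndrg1, -0.92 for Mug1, -0.76 for Tgfa, -0.73 for Fam55b and -0.63 for Rhobtb3.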

How the results depend on the processing

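No KO estimate of the 52 named genes called in KO changed sign in any of 34 other fits, and which genes passed depended on the setting. Of the 28 clock genes, none called in KO, 13 changed sign in at least 1 fit. No paired analysis was possible because day and night mice share no mouse number and no cage. Cages that held both genotypes entered the test of the genotype difference as a random block, which called 2991 genes, against 2872 in limma-voom without the block. Against 237 called in KO, 4524 called in WT, 2912 with a genotype difference, 60.7% with the same sign and 55 called the same way, DESeq2 gave 820 called in KO and 197 the same way. Scaling by total counts gave 485 and 108. The fit of all 48 mice gave 93, with 50.5% of the same sign and 13 the same way. Without KO ZT12 mouse 21, left out after seeing the data, it gave 295, 62.4% and 71. A body weight covariate gave 35 the same way, cage as a random block in limma-voom 85 called in KO and 20 the same way, and the length trend covariate, chosen after seeing the data, 28 the same way.

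Night mice of ZT16 only gave 3 called in KO, 33.3% of the same sign, 1 the same way and 0 list members (12 in the 16-mouse fit). Night mice of ZT20 only gave 90 called in KO, 2936 in WT, 1162 genotype differences and 21 the same way. ZT4 against ZT16 gave 44, 2786, 1797, 52.4% and 8; ZT8 against ZT20 gave 1 called in KO, 1484 genotype differences, 100% and 0 the same way. Group-housed mice gave 13, 38.5% and 2, and the 24 h cosine 1 in KO (26 without KO ZT12 mouse 21) and 7358 in WT, the last 2 chosen after seeing the data. These fits hold fewer mice, except the cosine and the 48-mouse fit.

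Without 1 mouse, the counts ran from 70 to 723 in KO, 4020 to 4663 in WT, 2575 to 3177 for the genotype difference, 17 to 159 called the same way and 2 to 58 list members, and the same-sign share from 52.4% to 64.3%. Apart from fewer samples, the causes were not tested. Genes far under 1 CPM are limited by counting error.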

Other observations

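Genes that differ between the sexes in mouse liver had KO estimates on opposite sides of 0, almost all without a call. Over all genes tested 1.71% were called in KO and the median estimate was 0.00, so 0 or 1 call does not set these lists apart. Of 23 male-biased genes 0 were called, 22 estimates were below 0 and the median log2 fold change (day minus night) was -0.64 in KO, against 0.04 in WT. Mup20, a major urinary protein, averaged 246 CPM by day and 786 by night in KO livers (adjusted p = 0.0574), against 881 by day and 949 by night in WT livers. Of 25 female-biased genes 1 (A1bg) was called, 20 estimates were above 0 and the median was 0.43 in KO, against -0.09 in WT. The members of each list share the same mice, Cyp7b1 stands in both lists as written, and no test was made of the lists.

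Cell cycle genes were called 0 of 23 times in KO, with 22 estimates above 0 and a median of 0.56, against 7 called by day and 5 by night in WT (median 0.41). Over all genes tested, 1.71% were called in KO and 32.6% in WT. Mcm5, a subunit of the replicative helicase named after its values were seen, averaged 10.6 CPM by day and 6.21 by night in KO livers, against 4.26 by day and 12.4 by night in WT livers. Birc5, which acts in mitosis, averaged 3.06 CPM by day and 1.53 by night in KO livers, against 3.57 by day and 1.37 by night in WT livers.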
